A study of Mus musculus with 20 samples.

Results

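The expression of 38 genes of glucose production, glycolysis and insulin signalling was followed in the livers of male mice. These genes were taken by symbol from a list of the enzymes, transporters, signalling proteins and targets of these pathways, and all 38 were found among the 16115 genes of the deposited table. The mice were Fancd2 mutants (genotype d2-/-) given metformin, given oxymetholone, given both, or left untreated, and untreated wild type (wt). The labels report collection after 18 months of treatment. The Fancd2 protein acts in the repair of crosslinked DNA, and its loss causes Fanconi anaemia in humans. Metformin is a drug that lowers hepatic glucose output, and oxymetholone is an anabolic androgen. Libraries numbered 3 with metformin, 5 with oxymetholone, 3 with the combination, 3 of untreated mutants and 4 of wild type, 18 of the 20 labelled samples. The sources used here do not give strain, age, dose, feeding state or hour of collection. There was no treated wild-type group, so a drug effect could be measured only in mutants.

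The liver releases glucose during fasting by gluconeogenesis and by glycogen breakdown, and after feeding it takes glucose up, burns it by glycolysis and stores it as glycogen. Glucagon, through cyclic AMP, favours release, and insulin, through the receptor, its substrates and AKT, keeps the transcription factor FOXO1 out of the nucleus and so lowers transcription of Pck1, G6pc and Igfbp1. Metformin is known for lowering hepatic glucose output, and androgens can alter insulin sensitivity.

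Pck1, G6pc, Igfbp1 and Pfkfb3 carry most of the contrasts described here, and the 250 bases before their transcription starts are printed to show which hormone-response motifs lie there. The sequences are the RefSeq promoters of GRCm38.p6, the build of that table and not that of the deposited counts. Capitals mark matches, searched on both strands. The cyclic AMP response element was searched as TGACGTCA or TTACGTCA. For the insulin response element the letters CAAAACA were used, and for the forkhead site, where FOXO proteins bind, the letters TGTTTAC. The E box, the core of the carbohydrate response element, was searched as CACGTG, and the TATA box of core promoters as TATAAA. No marked motif overlaps another.
Pck1, chr2:173152823-173153072, plus strand: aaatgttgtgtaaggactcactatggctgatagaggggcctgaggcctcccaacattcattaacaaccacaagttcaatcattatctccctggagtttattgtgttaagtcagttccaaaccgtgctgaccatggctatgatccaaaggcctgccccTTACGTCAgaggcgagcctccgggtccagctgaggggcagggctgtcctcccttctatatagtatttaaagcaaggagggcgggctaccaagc
G6pc, chr11:101367466-101367715, plus strand: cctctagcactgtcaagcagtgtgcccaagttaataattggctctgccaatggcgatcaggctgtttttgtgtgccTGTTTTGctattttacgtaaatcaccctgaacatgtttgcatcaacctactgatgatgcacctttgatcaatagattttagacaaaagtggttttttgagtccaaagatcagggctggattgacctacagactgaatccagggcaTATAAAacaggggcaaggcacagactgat
Igfbp1, chr11:7197537-7197786, plus strand: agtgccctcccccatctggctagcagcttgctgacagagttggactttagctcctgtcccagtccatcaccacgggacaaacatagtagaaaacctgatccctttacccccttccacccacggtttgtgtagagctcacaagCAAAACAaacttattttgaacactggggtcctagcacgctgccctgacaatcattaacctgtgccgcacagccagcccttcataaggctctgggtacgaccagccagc
Pfkfb3, nearer start, chr2:11502091-11502340, minus strand: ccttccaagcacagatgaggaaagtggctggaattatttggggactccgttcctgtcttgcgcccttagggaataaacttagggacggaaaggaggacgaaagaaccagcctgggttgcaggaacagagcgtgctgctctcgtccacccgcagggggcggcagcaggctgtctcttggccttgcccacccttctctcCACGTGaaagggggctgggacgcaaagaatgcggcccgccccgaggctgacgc
Pfkfb3, other start, chr2:11553930-11554179, minus strand: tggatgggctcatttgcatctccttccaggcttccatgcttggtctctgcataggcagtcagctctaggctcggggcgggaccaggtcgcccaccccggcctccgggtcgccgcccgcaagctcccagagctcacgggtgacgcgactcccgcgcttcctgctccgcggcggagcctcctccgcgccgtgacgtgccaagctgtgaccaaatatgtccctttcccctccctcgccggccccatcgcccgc
The Pck1 window holds TTACGTCA at 93 to 86 bases before the start. In G6pc the reverse complement of CAAAACA lies at 174 to 168 bases and TATAAA at 29 to 24 bases before the start. Igfbp1 holds CAAAACA at 108 to 102 bases. One of the Pfkfb3 windows holds CACGTG at 53 to 48 bases, and the other holds none of these letters. Of the 38 genes 33 were matched by symbol to that table, with 49 promoters in all. CAAAACA was present in 10.2% of these 49 (5 promoters: G6pc, Gckr, Igfbp1, Irs1 and Irs2), against 5.56% of all 32851 promoters. The cyclic AMP response element was present in 4.08% (Ldha and Pck1), against 1.98% of all promoters. CACGTG was present in 16.3% (8 promoters), against 6.02%, and TATAAA in 6.12% (3 promoters), against 12.4%. TGTTTAC was present in none, against 3.17% of all promoters. A match describes letters and not a used site.

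Total counts were 20.2 to 32.7 M per library. Levels are in CPM, counts scaled to the size of the library with TMM factors. They are comparable for 1 gene between libraries but not between genes of different length. Fancd2 itself is not analysed here. The table is liver: all 16 hepatocyte markers were measured, and their summed level was 76689.6 to 152225 CPM. A few libraries stood apart in their other cell-type markers. Metformin replicate 3 had 237 CPM of the bile duct keratin Krt19 and 43.1 CPM of the epithelial adhesion gene Epcam. Combination replicate 3 had 13.1 and 16.6 CPM of these genes, and Krt19 lay at 0.43 to 3.66 CPM in the other 16 libraries. The 13 measured bile duct markers summed to 44.6 to 803 CPM with metformin, 57 to 437 CPM with oxymetholone, 64.1 to 869.6 CPM with the combination, 69.2 to 1495 CPM in untreated mutants and 58.2 to 283 CPM in wild type. The 10 measured of 11 neutrophil markers summed to 18.6 to 1115 CPM with metformin, 62.5 to 3579 CPM with oxymetholone, 47.3 to 679 CPM with the combination, 171 to 4907 CPM in untreated mutants and 47 to 1386 CPM in wild type. Untreated mutant replicate 2 held the highest sums of both lists (1495 and 4907 CPM), and oxymetholone replicate 4 held the 3579 CPM of neutrophil markers. In untreated mutants Krt19 was at most 3.66 CPM and Epcam at most 2.1 CPM, so the bile duct sum of 1495 CPM came from other genes of that list. Untreated mutant replicate 2 is 1 of the 3 untreated mutants in each of the 4 comparisons. Proliferation markers summed to 64.2 CPM in combination replicate 3 and to at most 32.6 CPM elsewhere. Mitochondrial transcripts made up 8.19% of counts in oxymetholone replicate 3 and 1.54 to 3.89% elsewhere. The labels do not say that libraries are of separate animals, so p-values measure only the spread between these libraries. In these bulk samples fewer cells of a type and less RNA per cell cannot be told apart.

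In untreated mutants the 2 key enzymes of glucose release, Pck1 and G6pc, and the regulator of glycolysis Pfkfb3 lay lower than in wild type, by log2 differences of -1.55 ± 0.60, -1.38 ± 0.51 and -1.03 ± 0.45 (± SE). With oxymetholone, Pck1 lay 1.55 ± 0.58 above untreated mutants on the log2 scale, and with each of the 3 treatments Pfkfb3 lay above untreated mutants. The insulin-repressed gene Igfbp1 had its highest levels in mutants that received oxymetholone, alone or with metformin. None of these differences passed the adjusted threshold of 0.05 in edgeR's quasi-likelihood test, in which p-values were adjusted over all 16115 genes. They are reported as levels with their spread.

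Counted over the list, 0 of 38 genes passed the adjusted threshold in the comparison of untreated mutants with wild type, where 0% of all genes passed. Without adjustment, 3 of 38 had a p under 0.05, all lower, against 2.58% of all genes tested, 1.22% lower and 1.36% higher. DESeq2 and limma-voom called 0 of the 38 here, with 3 and 13 of them at an unadjusted p under 0.05, against 3.47% and 25.3% of all genes in these tools. Untreated mutant and wild-type libraries did not overlap in 4 genes, against 6.32% of all genes: Pck1, Pfkfb3 and Gys2 lay lower (3 genes, against 3.82%) and Pcx higher (1 gene, against 2.5%). Log2 differences were above 0 in 11 of the 38 genes, against 47.8% of all genes. The median of the 38 was -0.33, against -0.02 over all genes tested.

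Metformin gave 0 adjusted calls among the 38 and 0% among all genes. Pfkfb3 and Hk1, both higher, had an unadjusted p under 0.05, 2 of 38 against 5.67% of all genes, 4.41% higher and 1.27% lower. The groups did not overlap in 6 genes, against 7.26% of all genes. Pfkfb3, Gys2 and Tkfc lay higher in all 3 metformin libraries than in all 3 untreated mutants (3 genes, against 3.94%), and Ldha, Tpi1 and Ppp1r3c lay lower (3 genes, against 3.32%). Of 38 log2 differences 24 were above 0, against 53.9% of all genes. The median was 0.24, against 0.04 over all genes, and it was -0.0048 without metformin replicate 3. DESeq2 and limma-voom called 0 of the 38, with 4 at an unadjusted p under 0.05 in each, against 6.56% and 13.7% of all genes.

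Oxymetholone gave 0 adjusted calls among the 38 in edgeR, against 0.0434% of all genes. An unadjusted p under 0.05 was found for 6 genes, all higher (Pfkfb3, Pck1, Eno1, Gys2, Tkfc and Ppp1r3g), against 4.8% of all genes, 2.77% higher and 2.03% lower. The groups did not overlap in 4 genes, all higher (Pfkfb3, Gys2, Hk2 and Pkm), against 3.46% of all genes, 1.87% higher and 1.59% lower. Log2 differences above 0 were found for 29 of 38 genes, against 52.9% of all genes. The median was 0.42, against 0.03 over all genes. DESeq2 called 1 of the 38, Pfkfb3, and limma-voom 0, with 7 and 10 at an unadjusted p under 0.05, against 5.96% and 20.5% of all genes.

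The combination gave 0 adjusted calls in edgeR, against 0.0186% of all genes. Unadjusted, 4 genes had a p under 0.05, all higher (Pfkfb3, Ppp1r3g, Gys2 and Igfbp1), against 5.46% of all genes, 3.58% higher and 1.88% lower. The groups did not overlap in 5 genes, against 8.66% of all genes. Pfkfb3, Eno1 and Tkfc lay higher in the combination (3 genes, against 4.71%), and Tpi1 and Ppp1r3c lay lower (2 genes, against 3.95%). The log2 difference was above 0 in 23 of 38 genes, against 50.4% of all genes. The median was 0.08, against 0.0038 over all genes. DESeq2 called 1 of the 38, Pfkfb3, and limma-voom 0, with 5 at an unadjusted p under 0.05 in each, against 6.76% and 12% of all genes. The 3 drug comparisons share the same 3 untreated mutant libraries, and the comparison with wild type uses them too, so a value that is low in these 3 libraries enters all 4 comparisons.

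**Figure D1:**
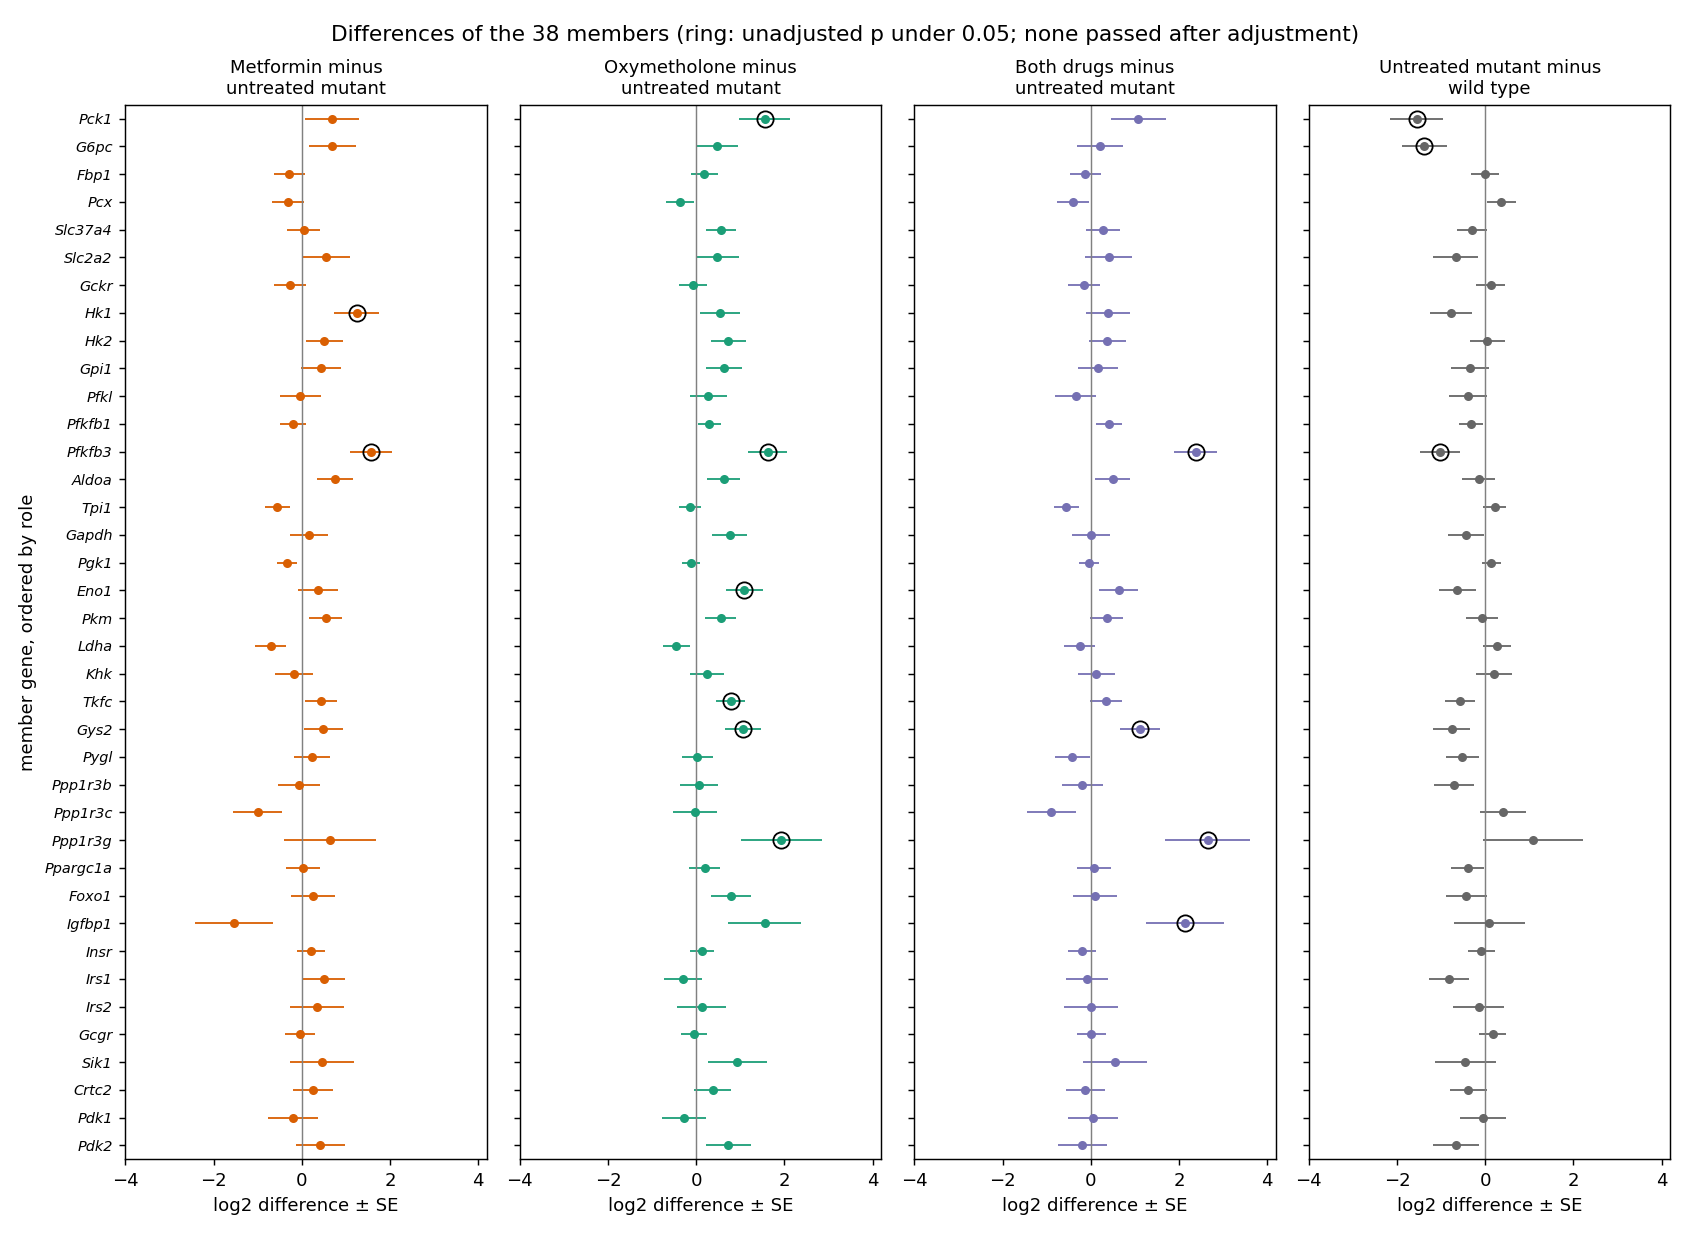
Log2 differences ± SE (horizontal axes) of the 38 genes in metformin, oxymetholone and combination mutants against untreated mutants and in untreated mutants against wild type. Rings mark an unadjusted p under 0.05 (2, 6, 4 and 3 genes), and no gene passed after adjustment in edgeR.

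Of the 38 genes Pfkfb3 had the smallest p in the test of any difference among the 5 groups (edgeR unadjusted p = 0.00195, adjusted p = 0.208). It encodes a bifunctional enzyme that makes the sugar bisphosphate which activates phosphofructokinase and inhibits fructose bisphosphatase. Pfkfb3 had 5.68, 5.98 and 4 CPM in metformin mutants, 3.2, 2.11, 5.48, 9.01 and 7.29 CPM in oxymetholone mutants and 6.24, 14.4 and 6.84 CPM in combination mutants. It had 1.95, 1.48 and 1.83 CPM in untreated mutants and 2.72, 3.49, 5.27 and 2.89 CPM in wild type. All 3 untreated mutants lay below all 15 other libraries, the only one of the 38 genes for which a group lay wholly below or above the rest. Across all genes 0.0931% lay below the 15 others in the untreated mutants and 0.105% above them. In each of the other groups 0.0124 to 0.0434% of all genes lay wholly below the rest, and likewise above. The search covered all 5 groups and both directions, so 0.0931% alone is too small a background for it. This count was chosen after the values were seen. Over untreated mutants the log2 difference was 1.57 ± 0.48 with metformin (edgeR adjusted p = 0.579), 1.62 ± 0.44 with oxymetholone (edgeR adjusted p = 0.461) and 2.38 ± 0.49 with the combination (edgeR adjusted p = 0.326). DESeq2 gave adjusted p-values of 0.0415 and 0.00141 for oxymetholone and the combination, and limma-voom 0.131 and 0.0585. Untreated mutants lay -1.03 ± 0.45 from wild type (edgeR adjusted p = 0.973). The combination replicate 2 library was the highest of all 18 libraries, and without it the combination difference was 1.89. In the authors' deposited table the log2 fold change of Pfkfb3 with the combination was 2.42 with an adjusted p of 0.131.

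Pfkfb1, the liver form of the same bifunctional enzyme, had a narrower range. Its means were 23.9 ± 5.71 CPM with metformin, 33.8 ± 9.05 CPM with oxymetholone, 36.7 ± 6.47 CPM with the combination, 27.5 ± 7.49 CPM in untreated mutants and 34.2 ± 7.08 CPM in wild type (± SD). Averaged over mutants with and without metformin, oxymetholone was associated with a log2 difference of 0.46 ± 0.19 (edgeR adjusted p = 0.882).

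Values of circadian clock genes are given beside Pfkfb3. Of 19 measured clock genes 0 passed the adjusted threshold in edgeR in any of the 4 comparisons. At an unadjusted edgeR p under 0.05, 2 lay higher and 1 lower with metformin, against 4.41% and 1.27% of all genes. With oxymetholone 9 lay higher and 3 lower, against 2.77% and 2.03%. With the combination 4 lay higher and 0 lower, against 3.58% and 1.88%. In untreated mutants against wild type 0 lay higher and 2 lower, against 1.36% and 1.22%. The median log2 differences of the 19 were 0.64 with metformin, 0.99 with oxymetholone, 0.32 with the combination and -0.54 in untreated mutants, against 0.04, 0.03, 0.0038 and -0.02 over all genes. The clock repressor Per1 had 9.53, 4.52 and 4.14 CPM in metformin mutants, 4.49, 3.04, 7.48, 12.3 and 9.18 CPM in oxymetholone mutants and 9.76, 10.7 and 2.99 CPM in combination mutants. It had 1.53, 1.15 and 4.22 CPM in untreated mutants and 3.87, 6.27, 6.88 and 5.7 CPM in wild type. The deubiquitinase Usp2, a clock output gene, had 7.32, 6.6 and 5.07 CPM in metformin mutants, 6.57, 3.82, 50.6, 23 and 46.8 CPM in oxymetholone mutants and 12.2, 38.1 and 2.61 CPM in combination mutants. It had 0.888, 1.75 and 2.13 CPM in untreated mutants and 1.61, 7.19, 4.8 and 2.89 CPM in wild type. The 4 lowest Usp2 values were those of the 3 untreated mutants and of 1 wild-type library, and the 2 lowest Per1 values were in untreated mutants. The part of the clock genes in the differences of Pfkfb3 was not tested.

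**Figure D2:**
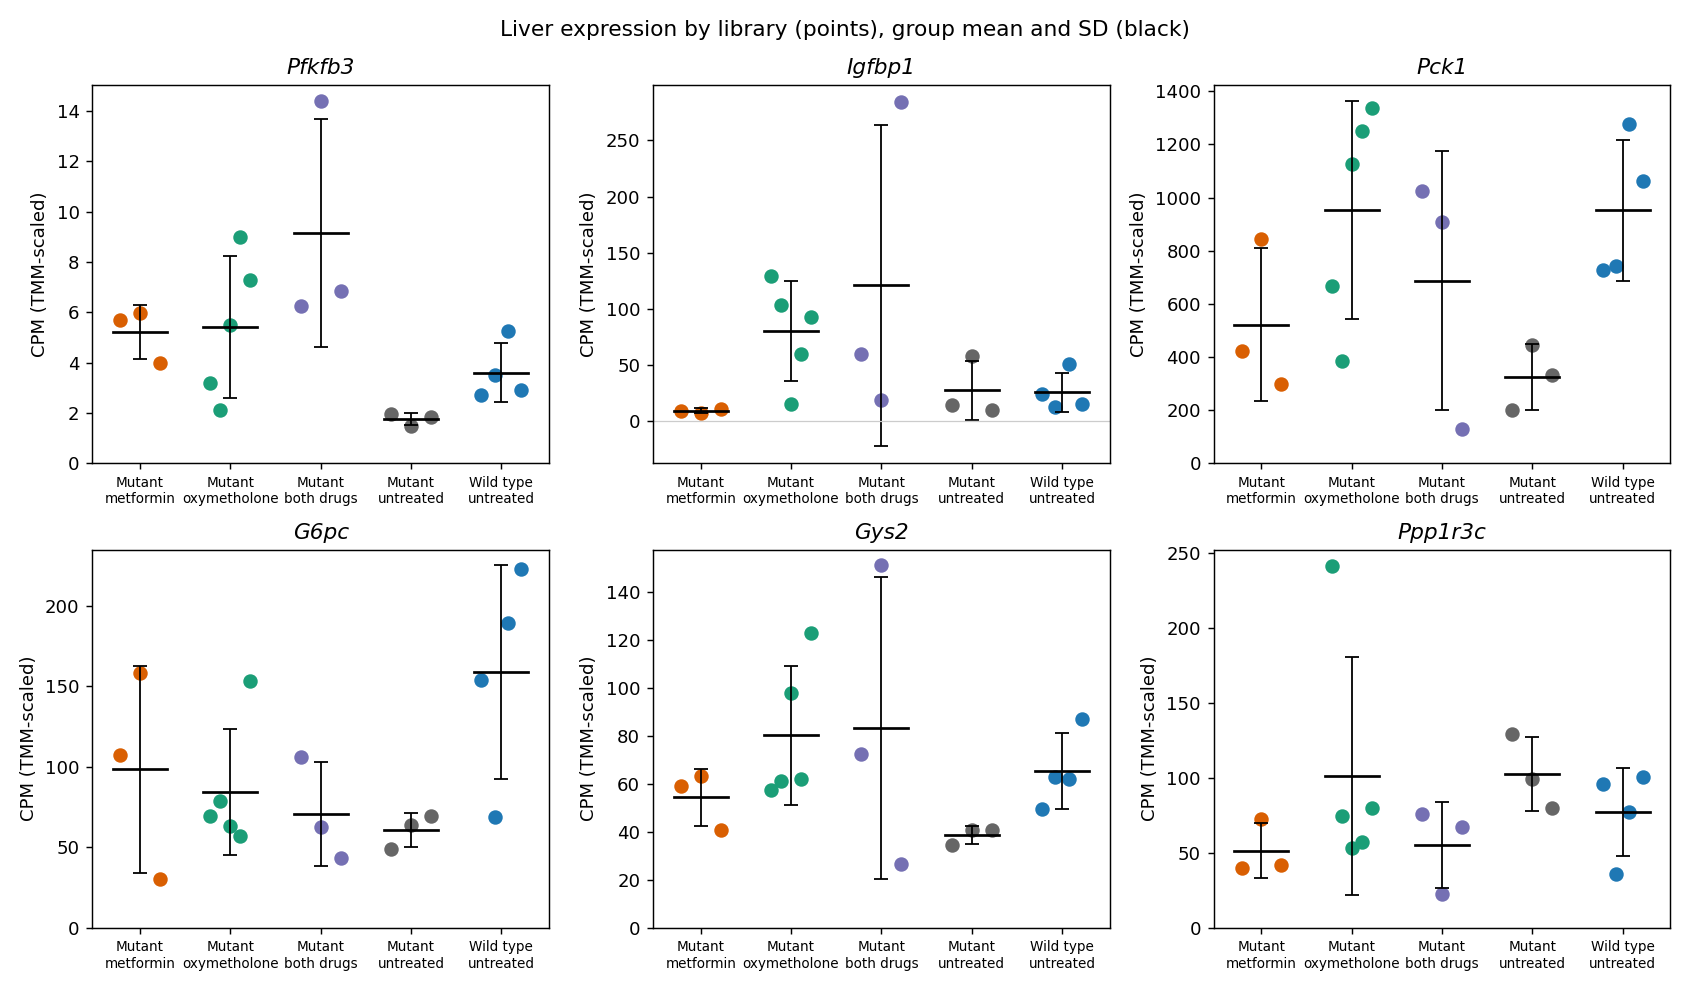
CPM (vertical axes, TMM-scaled) of 6 genes in each of the 18 libraries (points), with the group mean (line) and SD (bar). Pfkfb3 lay at 1.48 to 1.95 CPM in untreated mutants, below every other library, and Igfbp1 reached 284 CPM in combination replicate 3.

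Of the 6 genes of glucose release, 5 lay lower in untreated mutants than in wild type, with a median log2 difference of -0.48. With oxymetholone 5 of 6 lay higher, with a median of 0.48. Pck1 encodes phosphoenolpyruvate carboxykinase, which commits oxaloacetate to gluconeogenesis. Pck1 had 420.2, 845 and 296 CPM in metformin mutants, 665, 384, 1126, 1250.1 and 1337 CPM in oxymetholone mutants and 1026, 907 and 128 CPM in combination mutants. It had 198, 444 and 332 CPM in untreated mutants and 728, 741, 1277 and 1063 CPM in wild type. No untreated mutant reached the lowest wild-type library, and the lowest value of all was in combination replicate 3. The mean was 325 ± 123 CPM in untreated mutants and 952 ± 266 CPM in wild type (± SD), a log2 difference of -1.55 ± 0.60 (edgeR unadjusted p = 0.0193, adjusted p = 0.973). Oxymetholone lay 1.55 ± 0.58 above untreated mutants (edgeR unadjusted p = 0.0166, adjusted p = 0.877), with 4 of 5 libraries above the highest untreated mutant. The combination lay 1.08 ± 0.62 above them, with 2 libraries high and 1 low, and metformin 0.68 ± 0.61. Over mutants with against mutants without oxymetholone the log2 difference was 0.98 ± 0.42 (edgeR adjusted p = 0.908), and 1.48 without metformin replicate 3 and combination replicate 3.

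G6pc encodes the catalytic subunit of glucose-6-phosphatase, the last step before glucose leaves the cell. G6pc had 107, 158 and 30.4 CPM in metformin mutants, 69.6, 79, 63.3, 57.2 and 153 CPM in oxymetholone mutants and 106, 62.7 and 43.1 CPM in combination mutants. It had 49.1, 63.9 and 69.5 CPM in untreated mutants and 154, 68.6, 189 and 223 CPM in wild type. Of the wild-type libraries 3 were at 154 CPM or more, and 1 lay within the range of the untreated mutants. The log2 difference between untreated mutants and wild type was -1.38 ± 0.51 (edgeR unadjusted p = 0.0154, adjusted p = 0.973). With treatment the mean lay at 98.4 ± 64.3 CPM with metformin, 84.4 ± 39.2 CPM with oxymetholone and 70.4 ± 32 CPM with the combination (± SD), and all 3 groups overlapped the untreated mutants. With metformin alone, Pck1 and G6pc lay 0.68 ± 0.61 and 0.69 ± 0.53 above untreated mutants on the log2 scale, and neither passed the threshold.

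Pcx, the pyruvate carboxylase that feeds oxaloacetate to Pck1's enzyme, lay the other way. It had 376, 453 and 401 CPM in untreated mutants and 304, 259, 349.7 and 363 CPM in wild type, and each untreated mutant was above each wild-type library, with a log2 difference of 0.36 ± 0.33 (edgeR adjusted p = 0.973). With treatment Pcx had 429, 302 and 263 CPM in metformin mutants, 236, 289, 329, 497 and 243 CPM in oxymetholone mutants and 424, 358 and 143 CPM in combination mutants, and its range over all libraries was 143 to 497 CPM. Fbp1, the fructose bisphosphatase of gluconeogenesis, averaged 1081 ± 198 CPM with metformin, 1482 ± 256 CPM with oxymetholone, 1201 ± 580.3 CPM with the combination, 1309 ± 293 CPM in untreated mutants and 1313 ± 189.8 CPM in wild type (± SD). The groups overlapped in every one of the 4 comparisons of Fbp1. Slc37a4, which carries glucose 6-phosphate into the endoplasmic reticulum, ranged over 88.1 to 278 CPM. Slc2a2, the main glucose transporter of the hepatocyte membrane, ranged over 49.1 to 299 CPM, with untreated mutant replicate 2 at 55.4 CPM and oxymetholone replicate 4 at 49.1 CPM. These were the libraries with 4907 and 3579 CPM of neutrophil markers, against at most 1386 CPM in the other 16, and the part of those markers in the low Slc2a2 values was not tested.

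Of the 14 genes of glucose trapping and glycolysis, 10 lay higher with oxymetholone, with a median log2 difference of 0.55. Metformin gave 8 of 14 higher with a median of 0.26, and the combination 8 of 14 with a median of 0.26. Untreated mutants lay below wild type in 9 of 14, with a median of -0.23. Eno1, the enolase of lower glycolysis, had 65.3, 176 and 101 CPM in metformin mutants, 94, 103, 280.4, 162 and 303 CPM in oxymetholone mutants and 119, 121 and 169 CPM in combination mutants. It had 112, 86.2 and 66.4 CPM in untreated mutants and 83.2, 149.6, 143 and 172 CPM in wild type. All 3 combination libraries lay above all 3 untreated mutants, and 3 of 5 oxymetholone libraries did. The log2 difference was 1.09 ± 0.42 with oxymetholone (edgeR unadjusted p = 0.0178, adjusted p = 0.877) and 0.63 ± 0.45 with the combination (edgeR adjusted p = 0.989). The near copy Eno1b gave 1.07 ± 0.43 with oxymetholone. Both can share reads, so the value of each is uncertain.

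Tpi1, triosephosphate isomerase, lay lower with metformin. It had 332, 359 and 328 CPM in metformin mutants, 325, 289, 615, 552 and 467 CPM in oxymetholone mutants and 397, 321 and 298 CPM in combination mutants. It had 505, 551 and 436 CPM in untreated mutants and 406, 346, 498 and 464 CPM in wild type. Every library that received metformin, alone or combined, lay below every untreated mutant. So did oxymetholone replicates 1 and 2 (325 and 289 CPM) and wild type replicates 1 and 2 (406 and 346 CPM). The remaining oxymetholone and wild-type libraries, at 464 to 615 CPM, did not. The lowest value of all, 289 CPM, was in a library without metformin. On the log2 scale the difference was -0.55 ± 0.28 with metformin and -0.55 ± 0.28 with the combination. Averaged over both backgrounds it was -0.48 ± 0.19 (edgeR unadjusted p = 0.0201, adjusted p = 0.655). Tpi1 has near-identical pseudogene copies, so its level is uncertain. The same limit applies to Gapdh, Pgk1, Ldha and Aldoa.

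Ldha, which turns pyruvate to lactate, had 755, 736 and 594 CPM in metformin mutants, 735, 570.1, 764, 1345 and 693 CPM in oxymetholone mutants and 1229, 751 and 856 CPM in combination mutants. It had 1398, 1048 and 929 CPM in untreated mutants and 976, 541, 1198 and 1042 CPM in wild type. All metformin libraries lay below all untreated mutants, with a log2 difference of -0.70 ± 0.35 (edgeR unadjusted p = 0.0634, adjusted p = 0.898), while 1 wild-type library was the lowest of all 18. Hk1, a hexokinase that is low in hepatocytes, had 1.74, 8.98 and 2.17 CPM in metformin mutants, 2.96, 1.74, 2.71, 2.8 and 2.93 CPM in oxymetholone mutants and 3.07, 2.09 and 2 CPM in combination mutants. It had 2.24, 1.97 and 1.21 CPM in untreated mutants and 2.81, 3.6, 4.05 and 1.97 CPM in wild type. Its log2 difference with metformin was 1.25 ± 0.51 (edgeR adjusted p = 0.778), and 0.12 without metformin replicate 3, the library with 237 CPM of Krt19. Hk2, the insulin-sensitive hexokinase of muscle and fat, averaged 1.11 ± 0.325 CPM with metformin, 1.31 ± 0.428 CPM with oxymetholone, 1 ± 0.526 CPM with the combination, 0.784 ± 0.0284 CPM in untreated mutants and 0.757 ± 0.233 CPM in wild type (± SD). All 5 oxymetholone libraries lay above all 3 untreated mutants, with a log2 difference of 0.73 ± 0.39 (edgeR adjusted p = 0.877). Pkm, the pyruvate kinase of non-hepatocyte cells, had 20.4, 17.4, 18.7, 21.5 and 41.2 CPM with oxymetholone and 16.9, 16.3 and 15.6 CPM in untreated mutants, again without overlap, and a log2 difference of 0.55 ± 0.35. Pkm was also high in metformin replicate 3 (38.3 CPM) and combination replicate 3 (29.3 CPM), which carried the most Krt19. Its highest value, 41.2 CPM, was in oxymetholone replicate 5, and Krt19 was at most 1.49 CPM in oxymetholone mutants. The part of other cell types in Pkm was not tested.

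Gckr, a regulatory protein of hepatic glucose use, averaged 127 ± 52.6 CPM with metformin, 145 ± 37.4 CPM with oxymetholone, 138 ± 34.6 CPM with the combination, 153 ± 71.1 CPM in untreated mutants and 140.4 ± 5.56 CPM in wild type (± SD), with log2 differences between -0.26 and 0.12 over the 4 comparisons. Its range over untreated mutants was 74.9 to 214 CPM, wider than the 137 to 149 CPM of wild type. The aldolase Aldoa ranged over 55 to 204 CPM with its highest value in metformin replicate 3. Phosphoglycerate kinase, Pgk1, had the narrowest range of the 38 genes, 296 to 522 CPM, a ratio of 1.77 between its highest and lowest library.

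Gpi1 (glucose phosphate isomerase), Pfkl (the liver phosphofructokinase) and Gapdh (glyceraldehyde phosphate dehydrogenase) had their highest value in the same library. Gapdh had 336, 749.6 and 538 CPM in metformin mutants, 445, 384, 1401, 831 and 1044 CPM in oxymetholone mutants and 488, 506 and 456 CPM in combination mutants. It had 641, 461 and 351 CPM in untreated mutants and 470.2, 605, 748 and 815 CPM in wild type. Oxymetholone replicate 3 was the highest library for 9 of the 38 genes: Gpi1, Pfkl, Tpi1, Gapdh, Ppargc1a, Foxo1, Insr, Crtc2 and Pdk2. Gpi1 reached 204 CPM there, against 42.7 to 134 CPM in the other libraries. Pfkl reached 56 CPM there, against 15.2 to 48.8 CPM in the others. Pgk1 was not high in that library, at 320 CPM. The same library held 8.19% mitochondrial counts, and the part of that in these levels was not tested. Combination replicate 3, with its bile duct and proliferation markers, was the lowest library for 9 genes, among them Pck1, Fbp1, Pcx, Slc37a4 and Gys2 of glucose production and storage. It was the highest for Igfbp1 and Ppp1r3g. Hepatocyte markers summed to 78960.5 CPM in combination replicate 3. Only metformin replicate 4 had a lower sum, 76689.6 CPM, and it was the lowest library for 2 genes, G6pc and Pfkfb1. The part of the hepatocyte sums in these levels was not tested.

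**Figure D3:**
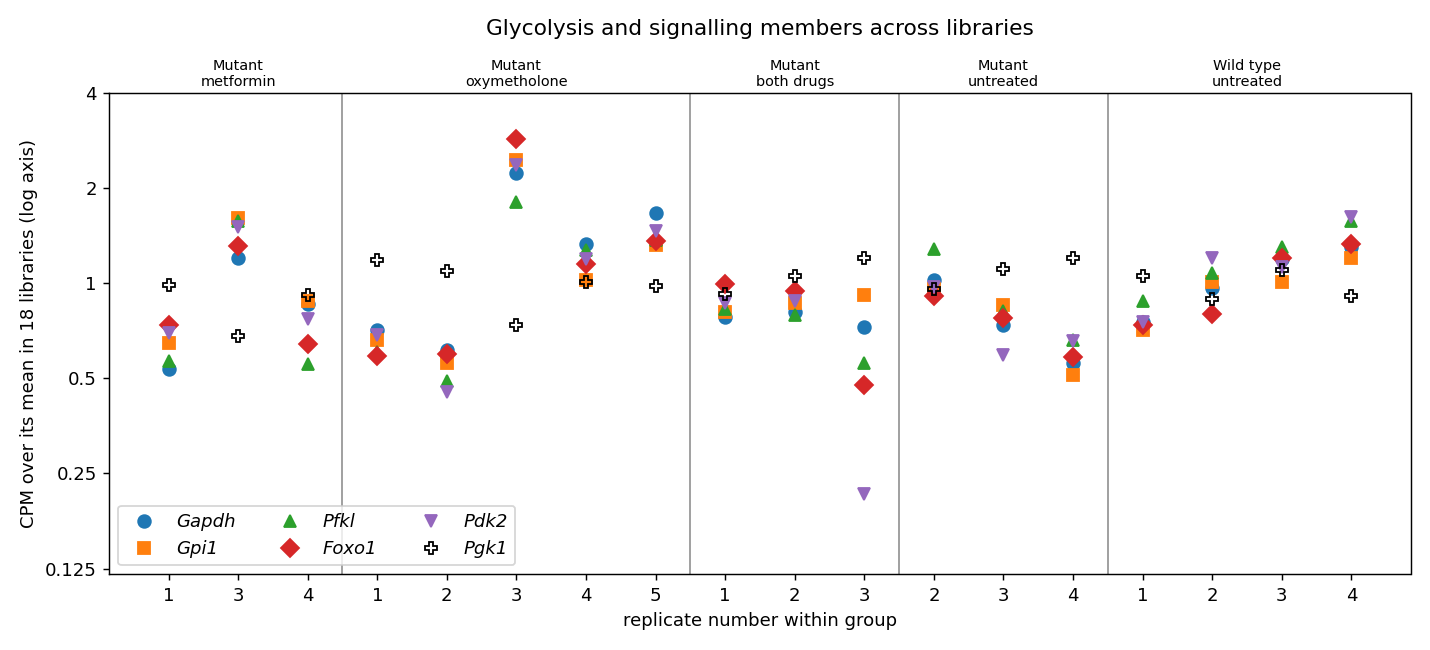
CPM of 6 genes divided by the mean of that gene over the 18 libraries (vertical log axis), by library within each group. Gapdh, Gpi1, Pfkl, Foxo1 and Pdk2 peak in oxymetholone replicate 3, where Pgk1 was at 320 CPM, within its range of 296 to 522 CPM.

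Khk, ketohexokinase, phosphorylates fructose in the liver cell, and Tkfc is the kinase that phosphorylates the glyceraldehyde made from fructose. Tkfc had 123, 190.1 and 129 CPM in metformin mutants, 101, 151, 254, 134 and 299 CPM in oxymetholone mutants and 148, 148 and 120.4 CPM in combination mutants. It had 120.3, 112 and 94.4 CPM in untreated mutants and 95.9, 164, 173 and 212 CPM in wild type. Metformin and combination libraries lay wholly above the untreated mutants, and 4 of 5 oxymetholone libraries did. Over untreated mutants its log2 difference was 0.44 ± 0.36 with metformin, 0.78 ± 0.33 with oxymetholone (edgeR unadjusted p = 0.0308, adjusted p = 0.877) and 0.35 ± 0.36 with the combination. Untreated mutants lay -0.57 ± 0.34 from wild type. Khk ranged over 364 to 1531 CPM, with untreated mutants at 364, 972 and 1171 CPM and overlap in all 4 comparisons. In the authors' deposited table Khk had a log2 fold change of 0.65 with oxymetholone and an adjusted p of 0.221, the smallest among the 38 genes in that comparison. The log2 difference of Khk computed here with oxymetholone was 0.24 ± 0.39 (edgeR unadjusted p = 0.55, adjusted p = 0.898).

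Of the 5 glycogen genes, glycogen synthase of liver, Gys2, had its lowest values in untreated mutants and in 1 combination library. Gys2 had 59, 63.4 and 40.9 CPM in metformin mutants, 57.4, 61.3, 97.7, 61.9 and 123 CPM in oxymetholone mutants and 72.2, 151 and 26.7 CPM in combination mutants. It had 34.4, 40.9 and 40.6 CPM in untreated mutants and 49.6, 62.7, 61.9 and 87 CPM in wild type. Untreated mutants lay below every wild-type library, below every metformin library and below every oxymetholone library, while combination replicate 3 was the lowest of all. The lowest metformin library and the highest untreated mutant both round to 40.9 CPM. The log2 difference of untreated mutants from wild type was -0.76 ± 0.42 (edgeR adjusted p = 0.973). It was 0.49 ± 0.45 with metformin, 1.06 ± 0.41 with oxymetholone (edgeR unadjusted p = 0.0206, adjusted p = 0.877) and 1.11 ± 0.45 with the combination (edgeR unadjusted p = 0.0249, adjusted p = 0.866), each over untreated mutants. Without combination replicate 2, which held 151 CPM, the last of these was 0.35. Pygl, the liver glycogen phosphorylase that frees glucose from glycogen, averaged 357 ± 129 CPM with metformin, 308 ± 93.4 CPM with oxymetholone, 228 ± 61.7 CPM with the combination, 305 ± 137 CPM in untreated mutants and 437 ± 98.7 CPM in wild type (± SD), and its groups overlapped in all 4 comparisons.

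The glycogen-targeting subunits of protein phosphatase 1 bring that phosphatase to glycogen, where it activates synthase. Ppp1r3c had 39.8, 72.8 and 41.8 CPM in metformin mutants, 241, 74.3, 53.1, 57.1 and 79.9 CPM in oxymetholone mutants and 76.1, 22.8 and 67.1 CPM in combination mutants. It had 129, 99.3 and 80.0 CPM in untreated mutants and 95.9, 35.6, 77 and 100.2 CPM in wild type. Each metformin library and each combination library lay below each untreated mutant. So did every oxymetholone library but replicate 1, at 53.1 to 79.9 CPM, while replicate 1 reached 241 CPM. The fitted level with metformin was 0.501 of that in untreated mutants. The log2 difference was -0.89 ± 0.56 with the combination and -0.93 ± 0.38 averaged over both backgrounds (edgeR unadjusted p = 0.025, adjusted p = 0.68). Without oxymetholone replicate 1 the last of these was -0.63. Ppp1r3b, the main such subunit of liver, averaged 76 ± 26.1 CPM with metformin, 82.7 ± 38.6 CPM with oxymetholone, 69.3 ± 24.9 CPM with the combination, 78.9 ± 41.7 CPM in untreated mutants and 129.5 ± 47.2 CPM in wild type (± SD). Its log2 difference between untreated mutants and wild type was -0.71 ± 0.45 (edgeR adjusted p = 0.973). Ppp1r3g was near the detection limit. Its raw counts were 5, 1 and 5 with metformin, 10, 11, 3, 3 and 23 with oxymetholone, 2, 9 and 47 with the combination, 1, 4 and 1 in untreated mutants, and 1, 1, 2 and 0 in wild type. The count of 0 allows a level of up to 0.116 CPM (3 counts). The fitted log2 difference was 1.93 ± 0.91 with oxymetholone and 2.65 ± 0.96 with the combination (edgeR adjusted p = 0.877 and 0.821). The 47 counts of combination replicate 3 carry the second of these, which was 1.62 without that library.

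Igfbp1 ranged over 7.46 to 284 CPM, and this ratio of 38 was the largest among the genes detected in every library. It encodes a secreted binding protein of insulin-like growth factors whose transcription in liver is repressed by insulin. Igfbp1 had 9.53, 7.46 and 11.5 CPM in metformin mutants, 129.8, 104, 15.6, 59.7 and 93.2 CPM in oxymetholone mutants and 59.9, 19 and 284 CPM in combination mutants. It had 14.3, 58.1 and 10.2 CPM in untreated mutants and 24.6, 12.5, 50.8 and 15.3 CPM in wild type. All 3 metformin libraries were at 11.5 CPM or less, and the 8 libraries that received oxymetholone ranged over 15.6 to 284 CPM. Untreated mutants spanned both, with replicate 3 at 58.1 CPM. Wild type, at 12.5 to 50.8 CPM, overlapped the libraries that received oxymetholone. Over untreated mutants the log2 difference was 1.55 ± 0.82 with oxymetholone (edgeR adjusted p = 0.877), 2.14 ± 0.89 with the combination (edgeR adjusted p = 0.877) and -1.53 ± 0.88 with metformin (edgeR adjusted p = 0.927). The combination difference was 0.52 without combination replicate 3, which held 284 CPM along with 64.2 CPM of proliferation markers. The part of that library's other cell types in its Igfbp1 level was not tested.

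Mutants with and without oxymetholone were also compared as the mean of the difference with and without metformin, which uses 14 libraries. In that comparison 0 of the 38 genes passed the adjusted threshold in edgeR, against 0.124% of all genes. An unadjusted p under 0.05 was found for 7, all higher (Igfbp1, Pfkfb3, Ppp1r3g, Gys2, Pfkfb1, Pck1 and Eno1), against 5.04% of all genes, 2.74% higher and 2.3% lower. The log2 difference was above 0 in 24 of 38, against 47.7% of all genes. Igfbp1 had the smallest p of the 38, with a log2 difference of 2.61 ± 0.63 (edgeR unadjusted p = 0.000672, adjusted p = 0.226). Leaving out combination replicate 3 gave 1.80 and leaving out untreated mutant replicate 3 gave 3.19. DESeq2 called Igfbp1 and Pfkfb3 here, with adjusted p-values of 0.00141 and 0.0334, and limma-voom called 0 of the 38. At an unadjusted p under 0.05 these tools held 7 of the 38 each, against 5.66% of all genes in DESeq2 and 9.26% in limma-voom. Pfkfb3 differed by 1.22 ± 0.32 (edgeR adjusted p = 0.342).

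Metformin was compared in the same way, over both untreated and oxymetholone backgrounds. There 0 of the 38 genes passed the adjusted threshold, against 0% of all genes. Unadjusted, 3 had a p under 0.05 (Pfkfb3 higher, Tpi1 and Ppp1r3c lower), against 6.17% of all genes, 4.83% higher and 1.34% lower. Of the 38 log2 differences 15 were above 0, against 51.3% of all genes. Pfkfb3 differed by 1.16 ± 0.31 (edgeR adjusted p = 0.548). DESeq2 and limma-voom called 0 of the 38 in this comparison, with 3 at an unadjusted p under 0.05 in each, against 6.96% and 6.43% of all genes. Whether the metformin difference itself depended on oxymetholone was tested as an interaction: 0 of the 38 genes passed, against 0% of all genes, and 0 of the 38 had an unadjusted edgeR p under 0.05, against 3% of all genes (0.993% positive and 2% negative). DESeq2 and limma-voom called 0, with 2 and 3 at an unadjusted p under 0.05, against 3.76% and 10.7% of all genes. The interaction of Pfkfb3 was -0.81 ± 0.62 and that of Igfbp1 2.12 ± 1.15 (edgeR adjusted p = 0.863 for both). The interaction was above 0 in 12 of 38, against 47.3% of all genes. Its median over the 38 genes was -0.50, against -0.04 over all genes, and -0.12 without metformin replicate 3 and combination replicate 3. A test of any difference among the 5 groups gave 0 of 38 past the adjusted threshold in edgeR, against 0.18% of all genes. Without adjustment 3 had a p under 0.05, Pfkfb3, Igfbp1 and Ppp1r3g, against 5.8% of all genes. DESeq2 called 2 of the 38 in this test, Igfbp1 and Pfkfb3, and limma-voom 0, with 6 and 12 at an unadjusted p under 0.05, against 7.84% and 20.1% of all genes.

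The insulin receptor and its substrates showed small differences. Insr averaged 33.2 ± 1.44 CPM with metformin, 31.4 ± 13.7 CPM with oxymetholone, 25 ± 9.17 CPM with the combination, 28.7 ± 4.17 CPM in untreated mutants and 30.6 ± 3.69 CPM in wild type (± SD). Irs1, the receptor substrate that passes the signal to PI3 kinase, was low throughout, at 2.38 ± 1.22 CPM with metformin, 1.36 ± 0.447 CPM with oxymetholone, 1.58 ± 0.759 CPM with the combination, 1.67 ± 0.526 CPM in untreated mutants and 2.95 ± 1.28 CPM in wild type. Its log2 difference between untreated mutants and wild type was -0.82 ± 0.45 (edgeR unadjusted p = 0.0876, adjusted p = 0.973). Irs2, the substrate whose transcription FOXO1 raises in fasting, averaged 5.12 ± 4.96 CPM with metformin, 4.43 ± 1.73 CPM with oxymetholone, 4.08 ± 0.684 CPM with the combination, 4.07 ± 2.52 CPM in untreated mutants and 4.52 ± 1.73 CPM in wild type. Its highest value, 10.8 CPM, was in metformin replicate 3. For all 3 of these genes the groups overlapped in each of the 4 comparisons.

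Downstream of insulin, Foxo1 averaged 12.5 ± 5.02 CPM with metformin, 18.2 ± 12.9 CPM with oxymetholone, 11.3 ± 4 CPM with the combination, 10.5 ± 2.28 CPM in untreated mutants and 14.2 ± 4.1 CPM in wild type (± SD). The oxymetholone mean includes replicate 3 at 39.7 CPM, with the other 4 libraries at 8.21 to 18.9 CPM. Ppargc1a encodes a coactivator that raises gluconeogenic genes in fasting. It averaged 4.01 ± 1.37 CPM with metformin, 4.45 ± 1.8 CPM with oxymetholone, 4.11 ± 0.517 CPM with the combination, 3.91 ± 1.7 CPM in untreated mutants and 5.14 ± 0.577 CPM in wild type, with log2 differences between -0.40 and 0.19 over the 4 comparisons.

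On the glucagon side, the receptor Gcgr averaged 207 ± 85.9 CPM with metformin, 205 ± 40.9 CPM with oxymetholone, 213 ± 58.8 CPM with the combination, 213 ± 68.9 CPM in untreated mutants and 189 ± 36.3 CPM in wild type (± SD), with log2 differences between -0.05 and 0.17 over the 4 comparisons. Crtc2, the cyclic AMP-regulated coactivator of CREB, averaged 12.3 ± 5.54 CPM with metformin, 13.3 ± 8.53 CPM with oxymetholone, 9.5 ± 3.23 CPM with the combination, 10.3 ± 1.17 CPM in untreated mutants and 13.5 ± 2.62 CPM in wild type. Sik1, a kinase induced by cyclic AMP that inactivates CRTC2, spread widely within groups. It averaged 7.52 ± 5.43 CPM with metformin, 10.5 ± 6.27 CPM with oxymetholone, 8.05 ± 3.36 CPM with the combination, 5.48 ± 5.4 CPM in untreated mutants and 7.49 ± 2.63 CPM in wild type. Groups overlapped for these 3 genes in all 4 comparisons.

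Pdk1 and Pdk2 encode kinases that switch off pyruvate dehydrogenase and so spare pyruvate from oxidation. Pdk1 ranged over 29.1 to 165 CPM, and both its extremes were in untreated mutants. Pdk2 ranged over 13.3 to 146 CPM, with the lowest value in combination replicate 3 and the highest in oxymetholone replicate 3. Their log2 differences were between -0.66 and 0.73 over the 4 comparisons, and none had an unadjusted edgeR p under 0.05.

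**Figure D4:**
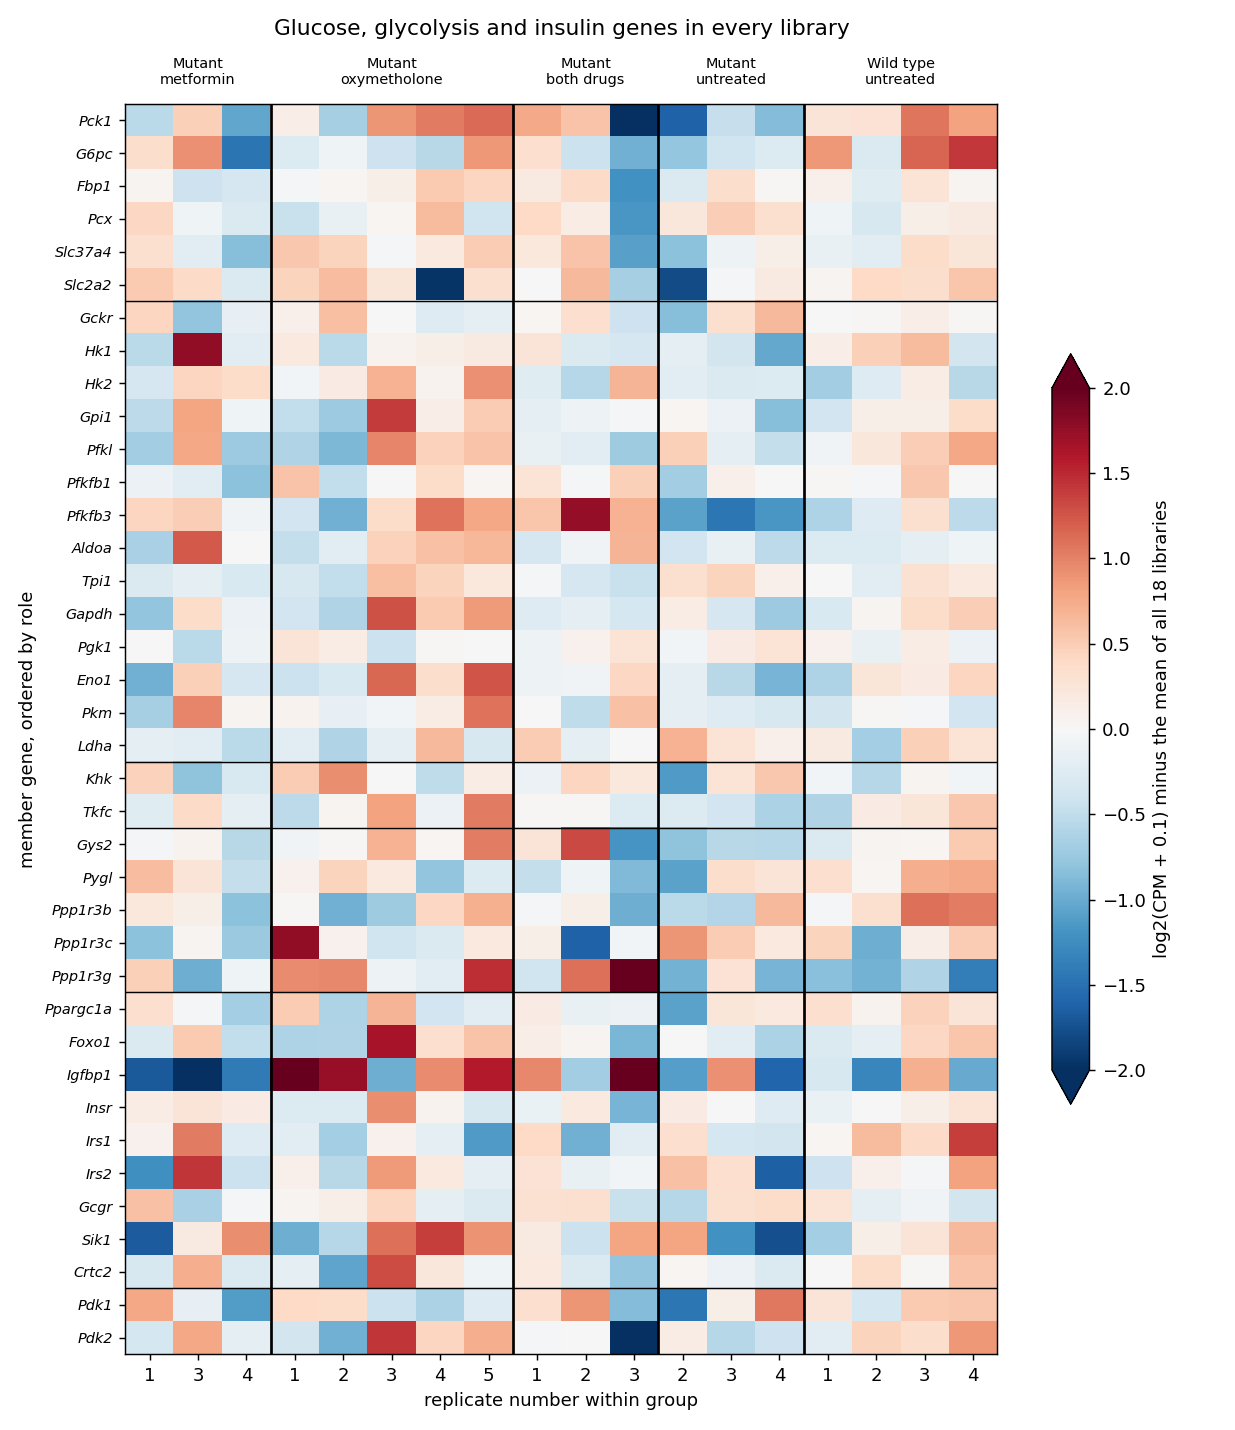
Log2(CPM + 0.1) of the 38 genes (rows, in order of role, lines between roles) in the 18 libraries (columns, by group), each minus its mean over the libraries. Oxymetholone replicate 3 holds the highest value of 9 of the 38 genes, and combination replicate 3 the lowest value of 9.

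Other genes of the same pathways were counted from 10 lists, and 0 genes of these lists passed the adjusted threshold in edgeR in any of the 4 comparisons. The genes counted as higher or lower in these lists had an unadjusted edgeR p under 0.05. Over all genes tested 4.41% lay so higher and 1.27% lower with metformin, 2.77% and 2.03% with oxymetholone, 3.58% and 1.88% with the combination, and 1.36% and 1.22% in untreated mutants against wild type. Among 19 other genes of gluconeogenesis, 1 lay higher and 1 lower with oxymetholone. The lower one was the lactate and pyruvate transporter Slc16a1, with a log2 difference of -0.93 ± 0.23 (edgeR adjusted p = 0.348). The higher one, Gpt2, an alanine aminotransferase, gave 0.67 ± 0.27. With metformin 1 of the 19 lay higher (Fbp2, the muscle fructose bisphosphatase), with the combination 0 and in untreated mutants against wild type 0. Fbp2 had 0.211, 6.8 and 0.203 CPM with metformin, against 0.355, 0.219 and 0.0734 CPM in untreated mutants, and the high value was that of metformin replicate 3. In that library the 2 measured of 7 skeletal muscle markers summed to 96 CPM, against at most 2.46 CPM in the other 17 libraries.

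Of 23 other glycolysis genes, 2 lay lower in untreated mutants than in wild type: Pklr, the liver pyruvate kinase (-0.84 ± 0.40), and Tigar, a phosphatase that degrades the sugar bisphosphate made by the Pfkfb3 enzyme (-0.59 ± 0.23; edgeR adjusted p = 0.973 for both). With oxymetholone 2 lay higher, Eno1b and Pfkfb2 (0.64 ± 0.28), and with the combination Pfkfb2 lay higher (0.68 ± 0.30). With metformin 3 lay higher: Hkdc1, Pgam2 and Ldhb. Hkdc1 had 8.49 CPM in metformin replicate 3 and at most 0.964 CPM elsewhere. Pgam2, the muscle phosphoglycerate mutase, had 3.76 CPM in that library and at most 0.793 CPM elsewhere, and Ldhb 14 CPM there and at most 11.1 CPM elsewhere. Of 23 other glycogen genes, 2 lay higher with metformin, Pygm and Pygb, the muscle and brain phosphorylases, 1 lower with oxymetholone (Ppp1cc), and 0 otherwise. Pygm had 10 CPM in metformin replicate 3 and at most 1.53 CPM elsewhere, and Pygb 21.1 CPM there and at most 9.82 CPM elsewhere. The part of that library's muscle and bile duct markers in Fbp2, Pgam2, Ldhb, Hkdc1, Pygm and Pygb was not tested.

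Of 42 other genes of insulin signalling, 4 lay higher and 1 lower with metformin, 3 higher and 0 lower with oxymetholone, 2 higher and 0 lower with the combination, and 0 higher and 1 lower in untreated mutants against wild type. Grb10, an adaptor that inhibits the insulin receptor, lay 1.93 ± 0.57 higher with metformin (edgeR adjusted p = 0.579) and 1.59 ± 0.57 with the combination (edgeR adjusted p = 0.817). Its levels were 2.11, 7.26 and 1.94 CPM in metformin mutants, 1.28, 0.89, 3.05, 2.15 and 2.06 CPM in oxymetholone mutants and 1.49, 2.35 and 5.03 CPM in combination mutants. It had 1.21, 0.984 and 0.77 CPM in untreated mutants and 1.24, 1.85, 1.07 and 1.19 CPM in wild type. The highest Grb10 values, 7.26 and 5.03 CPM, were in metformin replicate 3 and combination replicate 3, the libraries with the most Krt19. The part of the other cell types of these libraries in Grb10 was not tested. The pseudokinase Trib1 lay -0.84 ± 0.34 in untreated mutants against wild type, and 0.87 ± 0.36 and 1.03 ± 0.33 with metformin and oxymetholone over untreated mutants. Of 38 genes of glucagon, cyclic AMP and fasting signalling, 6 lay higher with oxymetholone, led by Lpin1, a phosphatidate phosphatase and coactivator of fasting (2.06 ± 0.55), the cyclic AMP-induced receptor Nr4a1 (2.26 ± 0.61) and Cebpd (1.40 ± 0.43). The same list held 1 higher with metformin, 3 higher and 2 lower with the combination, and 1 lower in untreated mutants against wild type. Its median log2 difference was 0.18 with oxymetholone and -0.37 in untreated mutants, against 0.03 and -0.02 over all genes.

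Of 17 genes of AMPK and metformin transport, 0 lay past an unadjusted p of 0.05 with metformin or with oxymetholone, 2 lay higher with the combination (Prkab2, an AMPK subunit, and the cation transporter Slc22a3), and 1 lower in untreated mutants (Slc22a3). Of 12 genes of the carbohydrate response, 0 passed an unadjusted p of 0.05 with any treatment and 1 lay lower in untreated mutants (Pklr). Of 19 genes of fructose, galactose and pentose phosphate metabolism, 2 lay higher with metformin, 1 higher with oxymetholone (Rpia) and 1 lower with the combination (Galt). Of 10 other genes of the pyruvate dehydrogenase complex, 0 passed in any of the 4. Of 19 hypoxia targets, 1 lay higher with metformin, Car9, at 58.7 CPM in metformin replicate 3 and at most 0.611 CPM elsewhere, 0 with oxymetholone, 2 higher with the combination (P4ha1 and Adm) and 0 in untreated mutants. Adm reached 8.72 CPM in 1 combination library, with a median of 1.34 CPM in that group and at most 2.52 CPM in the other groups.

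The authors' deposited table, whose test the labels do not name, held 0 of the 38 genes at an adjusted p under 0.05 in its 7 comparisons. At an unadjusted p under 0.05 the authors' deposited table held 3 of them with metformin, 9 with oxymetholone, 5 with the combination and 2 in untreated mutants against wild type. Those 2 were Pck1, with a log2 fold change of -1.21, and Pygl, with -0.64, in the authors' deposited table. The share of all genes under that p in the authors' deposited table was not counted. The counts of 3, 9, 5 and 2 therefore cannot be read as a result about the 38 genes.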

How the data were processed

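Per the labels' protocols, a column kit gave the liver RNA and a sequencing service the libraries. The submitters' processing notes name the build GRCm39. Aligner, counting program, annotation and strand setting: not given in the sources used here. Per the file headers, the authors deposited 1 table of 16115 genes with raw counts per library, a CPM signal, log2 residuals, log2 fold changes and p-values. The deposited CPM signal equals the CPM computed here from the counts with TMM factors (0.798 to 1.31). The deposited log2 residuals (18 columns) were not used, and the authors' deposited log2 fold changes and p-values appear only where named. Of the labelled samples, 2 were not analysed here (replicate 1 of the untreated mutants and replicate 2 with metformin).

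The deposited counts were fitted with edgeR 4.0.16 (R 4.3.3), scaled by TMM, with filterByExpr (0 genes removed). The quasi-likelihood fit was robust and had a coefficient for each group, over 18 libraries. Adjustment was by Benjamini-Hochberg over all genes, with a threshold of 0.05. Total counts of 20.2 to 32.7 M and a common dispersion of 0.181 set the precision. The floor of 3 counts covers counting error only, while SE and SD cover the spread between libraries. Each SE was derived from the quasi-likelihood test, as the size of the log2 difference over the square root of its F value. Alternatives were DESeq2 1.42.0, limma-voom 3.58.1 with quality weights, DESeq2 size factors, no filter, a mean of at least 1 CPM (12737 genes), the compared groups alone, each library left out, and 2 libraries left out together. The fit was also run on simulated data, but the outcome is not given here and lends no weight to the calls. Values were given in full for genes with an unadjusted p under 0.05 or groups without overlap and a log2 difference of at least 1, and for 22 genes whatever their values. The 38 genes, the roles, the other lists and this rule were chosen with earlier results of these data known. Promoters were matched by symbol from RefSeq GRCm38.p6. One result for a gene of the other lists is not reported here.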

Additional observations from a re-analysis of the deposited data

Results flagged for a closer look

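In groups of 4 or 5 libraries, 76 combinations of gene and group were examined for a library that stands apart by Dixon's criterion, and 9 were found. The criterion flags about 1 in 20 for independent, normally distributed values, and CPM of genes measured in the same libraries need not be such values. The share flagged over all genes was not computed, so the 9 cannot be read as an excess. Of the 9, 7 were in oxymetholone mutants and 2 in wild type. G6pc was 153 CPM in oxymetholone replicate 5, with the other 4 libraries at 57.2 to 79 CPM. Slc2a2 was 49.1 CPM in oxymetholone replicate 4, with the others at 226 to 293 CPM. Ldha was 1345 CPM in the same library, with the others at 570.1 to 764 CPM. Hk1 was 1.74 CPM in oxymetholone replicate 2, with the others at 2.71 to 2.96 CPM. Pkm was 41.2 CPM in oxymetholone replicate 5, with the others at 17.4 to 21.5 CPM. Ppp1r3c was 241 CPM in oxymetholone replicate 1, with the others at 53.1 to 79.9 CPM. Insr was 55.3 CPM in oxymetholone replicate 3, with the others at 23.3 to 30.5 CPM. In wild type replicate 3, Gckr was 149 CPM, with the others at 137 to 138 CPM, and Pfkfb1 was 44.8 CPM, with the others at 29.9 to 31.3 CPM. The groups of 3 libraries were not examined.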

How the results depend on the processing

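For single genes the sign was followed only for log2 differences with an unadjusted edgeR p under 0.05 in the main fit. None of these changed sign under the alternatives run. Differences picked for a small p are the least likely to change sign, so this says nothing about the other differences. The median over the 38 genes changed sign in 3 comparisons: with metformin (0.24), in the interaction (-0.50) and with metformin over both backgrounds (-0.05), the last to 0.01 or 0.04 without untreated mutant replicate 3, metformin replicate 4 or oxymetholone replicate 3, and the others as given here. DESeq2 called more genes than edgeR: 11 with metformin, 77 with oxymetholone, 43 with the combination, 79 and 28 for oxymetholone and metformin over both backgrounds, 3 in the interaction and 307 among any of the 5 groups, against 0, 7, 3, 20, 0, 0 and 29 by edgeR. Among the 38 genes DESeq2 called 1 with oxymetholone, 1 with the combination, 2 with oxymetholone over both backgrounds and 2 among the 5 groups. Limma-voom called 14 genes with oxymetholone, 16 with the combination and 48 among the 5 groups, and its median interaction over the 38 was 0.05. A mean of at least 1 CPM left 12 genes called with oxymetholone over both backgrounds, and the compared groups alone left 0 with the combination. Without metformin replicate 3 and combination replicate 3, 15 genes were called with oxymetholone and 5 with the combination, the median over the 38 was -0.00039 with metformin and -0.12 in the interaction. With 1 library left out, calls ranged over 4 to 11 with oxymetholone (without untreated mutant replicate 4 and metformin replicate 3), 0 to 4 with the combination (0 without untreated mutant replicate 2), 9 to 18 with oxymetholone over both backgrounds (9 without untreated mutant replicate 4) and 11 to 139 among the 5 groups (without untreated mutant replicate 4 and metformin replicate 1). The median over the 38 ranged over -0.0048 to 0.34 with metformin (lowest without metformin replicate 3) and -0.60 to -0.23 in the interaction (-0.23 without metformin replicate 3). Limits: the causes of these shifts were not tested, groups held 3 to 5 libraries, and genes of a few counts such as Ppp1r3g rest on single libraries. No paired analysis was possible because the labels carry no replicate numbers, and the numbers here follow the order of the sample records.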
